A study of Mus musculus with 45 samples.

Results

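The genes that add, copy and remove DNA methylation were followed through liver regeneration in mice lacking Uhrf1 in hepatocytes and in wild-type mice. The set holds 9 genes: Uhrf1, Uhrf2, Dnmt1, Dnmt3a, Dnmt3b, Tet1, Tet2, Tet3 and Usp7. They were chosen by name and matched by Ensembl ID to the deposited gene counts, where all 9 of 9 were found among 19966 genes. Poly(A) RNA of whole liver was sequenced in 45 libraries that fall into 16 groups. The groups are Uhrf1hepKO (KO) and wild-type (WT) C57Bl/6 livers, sampled at baseline (titles give no time after surgery) or after partial hepatectomy. The 7 times after this operation were 24 h, 30 h, 40 h, 48 h, 96 h, 7 days and 4 weeks. In this operation part of the liver is cut away and the rest grows back. Mice were 8 to 12 weeks old at surgery and ate a normal diet. Groups held 3 libraries, except KO at 7 days, WT at 30 h and WT at 48 h, which held 2 each. By its name the KO line lacks Uhrf1 in hepatocytes, so other liver cells would keep the gene. The sources used here give neither the recombinase driver nor the deleted exons. Counts are given per gene and not per exon, so KO values may include transcripts that retain other exons.

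DNA methylation in mammals sits mostly on cytosines of CpG pairs. When DNA is copied, the new strand is unmethylated; UHRF1 binds such hemimethylated CpGs, marks histone H3 with ubiquitin and so recruits DNMT1, which copies the mark, while the deubiquitinase USP7 binds both proteins and is known to stabilise them. DNMT3A and DNMT3B set methylation on unmethylated DNA, and the TET dioxygenases oxidise methylcytosine, the first step of its removal. UHRF2 is a relative of UHRF1 that binds hydroxymethylated DNA and is not known to replace UHRF1 in maintenance. Resting hepatocytes rarely divide, and after hepatectomy most of them enter S phase, so the liver moves from little need of maintenance methylation to a high one.

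Because some members rose with S phase, their promoters were read for letters that S-phase promoters often carry. The searched motifs were an E2F core, taken as TTCCCGC with the variants TTGGCGC and TTCGCGC and TTGCCGC, and the CCAAT box, which the factor NF-Y binds. Both strands were searched. The variant TTGGCGC can overlap a CCAAT box on the other strand, since both then hold TTGG. RefSeq windows (GRCm38.p6) of 250 bases before to 50 after each start site matched all 9 members, with 14 windows in all. An E2F core lay in 2 of 2 windows of Uhrf1, 1 of 3 of Dnmt1 and 1 of 1 of Uhrf2, and in no window of the other members, against 9.57% of 32851 windows of all genes. CCAAT lay in 2 of 2 windows of Uhrf1, 2 of 3 of Dnmt1, 1 of 1 of Usp7 and 1 of 1 of Tet3. It lay in no window of the other members, against 37.4% of all windows. A match is a description of the letters and not evidence of binding. The exon-free stretches shown are those of the members whose counts rose after surgery, 5′ to 3′ along the gene's strand, with both motifs in capitals. For Dnmt1 only the start site at the annotated gene start is shown, and the stretches of its other start sites are not.
Uhrf1, first start site, chr17:56303269-56303320, plus strand: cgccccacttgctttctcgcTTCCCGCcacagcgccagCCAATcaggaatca
Uhrf1, second start site, chr17:56304109-56304238, plus strand: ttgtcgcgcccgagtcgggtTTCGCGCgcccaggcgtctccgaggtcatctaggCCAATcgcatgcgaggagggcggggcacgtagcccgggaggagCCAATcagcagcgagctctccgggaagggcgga
Uhrf2, chr19:30030436-30030512, plus strand: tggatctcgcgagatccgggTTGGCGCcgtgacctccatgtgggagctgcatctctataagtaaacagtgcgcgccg
Dnmt1, first start site, chr9:20959912-20960045, minus strand: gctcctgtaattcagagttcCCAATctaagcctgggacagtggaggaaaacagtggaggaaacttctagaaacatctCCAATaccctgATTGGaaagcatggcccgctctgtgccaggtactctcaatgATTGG
In these stretches each Uhrf1 promoter carried an E2F core upstream of a CCAAT box. The Uhrf2 stretch carried an E2F core and no CCAAT. The Dnmt1 stretch carried CCAAT letters on both strands and no E2F core. The E2F cores of Dnmt1 lay in the window of a start site 7265 bases further into the gene, which also held CCAAT. Which Dnmt1 start site these livers used was not tested, so the stretch shown may not be the promoter in use.

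Library totals lay between 12.85 and 23.13 M counts. All 10 hepatocyte markers were above 0 in all 45 libraries, and so were all 11 Kupffer cell and all 10 endothelial markers. Genes that mark the KO at the other conditions did not separate the libraries at 96 h. Bglap3, an osteocalcin-family gene that is nearly silent in WT liver, stood at 8.83 to 29.4 CPM (TMM-scaled counts per mega-count) in the libraries labelled KO at 96 h and at 9.38 to 28.4 in those labelled WT, against 0.112 to 1.53 in the 19 other WT libraries. Values of 96 h are therefore given as labelled. The mean KO-over-WT changes, the FPKM medians and the correlations across conditions leave them out. Counts of calls over conditions or times include them unless stated.

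Per length, Usp7 and Uhrf2 were the most abundant members and Tet1 the least. Levels in FPKM (fragments per kilobase of transcript, scaled by the authors to library size) are given as the median over the 20 KO and the 19 WT libraries outside 96 h. Usp7 stood at 12 FPKM in KO and 11.4 in WT, and Uhrf2 at 10.9 and 10.2. Dnmt1 (2.92 in KO, 1.98 in WT) and Dnmt3a (2.3 and 2.06) came next, then Tet3 (1.19 and 1.22) and Tet2 (0.885 and 0.915). Dnmt3b (0.455 and 0.529) and Uhrf1 (0.287 and 0.679) were lower. Neighbours in this order overlapped in their ranges. Uhrf1 ranged from 0 to 4.39 FPKM in KO and from 0.0817 to 28.6 in WT, whereas Usp7 ranged from 8.09 to 15.6 in KO and from 8.88 to 15.4 in WT.

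**Figure D1:**
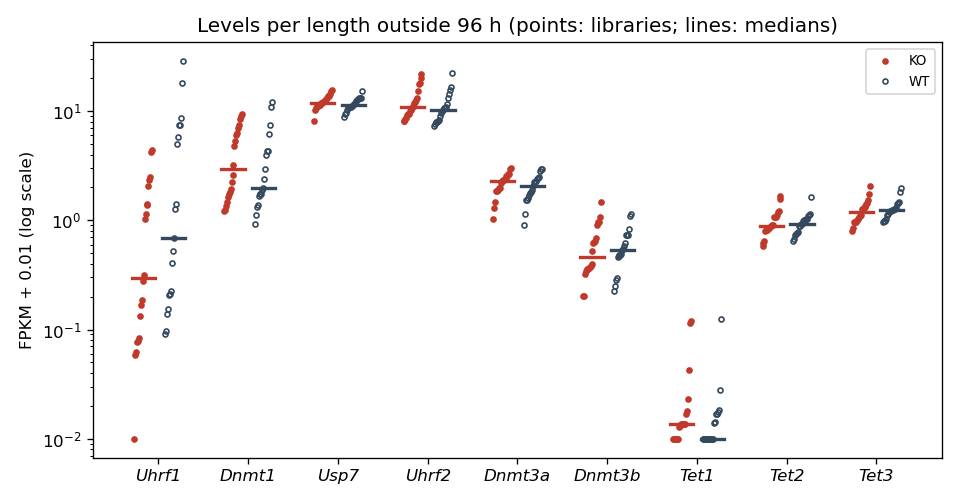
Authors' FPKM + 0.01 on a log axis for the 9 members, KO left of WT, 1 point per library outside 96 h (20 KO and 19 WT libraries), with lines at the medians. Usp7 and Uhrf2 lie near 10 FPKM, Uhrf1 and Dnmt1 spread over more of the axis than Usp7, and Tet1 lies at or near 0.

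Tet1, the dioxygenase best known from embryonic stem cells, was barely detected. It had 23 counts over the 23 KO libraries, 7 of them at 0, and 18 counts over the 22 WT libraries, 14 of them at 0. At this depth a count of 0 allows up to 0.127 to 0.241 CPM in a library, counting error only. Tet1 therefore did not pass the low-count filter, and the tests below cover the 8 other members among 14090 genes.

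Uhrf1, the gene targeted in the KO line, had the largest fold difference between the genotypes of the 8 members, at 40 h. Its levels were highest at 30 to 48 h. At baseline Uhrf1 was nearly silent in both genotypes, with 0, 0.247 and 0.103 CPM in KO livers and 0.219, 0.644 and 0.382 CPM in WT livers. The library at 0 allows up to 0.211 CPM. At 24 h KO livers had 1.09, 0.674 and 1.08 CPM and WT livers 4.74, 2.81 and 1.52 CPM. The highest KO library lay below the lowest WT library.

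At 30 h Uhrf1 stood at 8.87, 14.6 and 15.2 CPM in KO livers and at 36.5 and 28 CPM in WT livers. At 40 h it stood at 4.85, 8.95 and 3.59 CPM in KO livers and at 64.9, 27.5 and 107 CPM in WT livers. At 48 h the KO livers had 7.37, 3.88 and 3.69 CPM, against 19.2 and 19.9 CPM in WT livers. KO and WT libraries did not overlap from 24 to 48 h.

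The late values returned toward baseline. At 7 days KO livers had 0.72 and 0.216 CPM and WT livers 0.543, 2.23 and 5.49 CPM, with overlap. At 4 weeks the KO libraries lay at 0.223 to 0.317 CPM and the WT libraries at 0.353 to 0.452 CPM, both near their baseline and without overlap between them. These values rest on mean counts of 4.67 in KO and 7 in WT. The KO-over-WT log2 change at 4 weeks, −0.49 ± 1.06 (SE), was not called by edgeR. In the 96 h libraries, those labelled KO held 0.27, 1.76 and 2.07 CPM and those labelled WT 0.792, 0.148 and 0.284 CPM, so Uhrf1 gave no check of those labels.

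**Figure D2:**
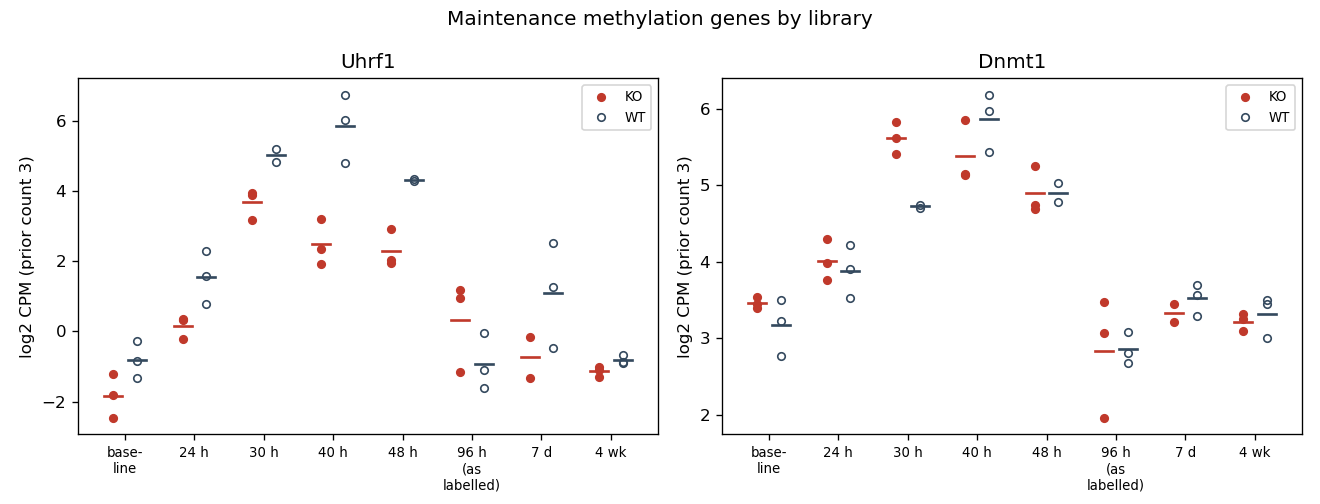
log2 CPM (prior count 3) of Uhrf1 and Dnmt1 in every library by condition, KO left of WT, with lines at group means. Uhrf1 lies lower in KO than in WT from 24 to 48 h with no overlap, while Dnmt1 lies higher in KO than in WT at 30 h.

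The KO-over-WT log2 fold change of Uhrf1 was −3.52 ± 0.50 (SE) at 40 h (edgeR adjusted p = 0.000314), where 0.142% of all genes were called. It was −1.67 ± 0.62 at 24 h, −1.33 ± 0.50 at 30 h and −1.97 ± 0.52 at 48 h, and −2.53 ± 0.86 at 7 days, with edgeR adjusted p of 1, 0.261, 0.231 and 0.554, so these were not called over all genes. With limma on log2(FPKM + 1) the 48 h change was called (−1.35, adjusted p = 0.0351). At baseline the change was −1.73 ± 1.31 (edgeR adjusted p = 0.822). Averaged over the 7 conditions outside 96 h, Uhrf1 fell by 1.89 ± 0.32 on the log2 scale (edgeR adjusted p = 0.000261), where 2.13% of genes were called. Fitted on the 40 h libraries alone, the 40 h change was −3.48 with an edgeR adjusted p of 0.291. In bulk liver, fewer cells of a type and less RNA per cell cannot be told apart.

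The Uhrf1 signal left in KO livers also rose after surgery. KO mean levels ran, from high to low, 12.9 ± 3.49 CPM (SD) at 30 h, 5.8 ± 2.81 at 40 h, 4.98 ± 2.07 at 48 h, 1.37 ± 0.962 at 96 h as labelled, 0.948 ± 0.237 at 24 h, 0.468 ± 0.356 at 7 days (n = 2), 0.275 ± 0.0478 at 4 weeks and 0.117 ± 0.124 at baseline, n = 3 elsewhere. In that order only 48 h and 96 h did not overlap. WT means ran 66.4 ± 39.6 CPM at 40 h, 32.3 ± 6 at 30 h (n = 2), 19.5 ± 0.448 at 48 h (n = 2), 3.02 ± 1.62 at 24 h and 2.75 ± 2.52 at 7 days, with 0.39 to 0.415 at the other conditions. There the pairs 30 h and 48 h, and 48 h and 24 h, did not overlap, and the other neighbours did. KO was highest at 30 h and WT at 40 h.

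Against its own baseline Uhrf1 rose at 5 of 7 times in KO and at 5 of 7 in WT. In KO the log2 change was 2.91 ± 1.08 (24 h), 6.65 ± 0.81 (30 h), 5.50 ± 0.85 (40 h), 5.29 ± 0.86 (48 h) and 3.49 ± 1.03 (96 h, as labelled) (edgeR adjusted p 0.0483, 1.19e-07, 5.34e-06, 9.98e-06 and 0.00639). In WT it was 2.84 ± 0.76 (24 h), 6.25 ± 0.71 (30 h), 7.29 ± 0.69 (40 h), 5.53 ± 0.71 (48 h) and 2.73 ± 0.77 (7 days) (edgeR adjusted p 0.00598, 1.62e-07, 3.56e-10, 2.58e-07 and 0.0428). The KO 24 h call was lost without any 1 library of either group (edgeR adjusted p 0.0549 to 0.145) and with the replicate block (0.0568). The WT 7 day call was lost without WT baseline replicate 1, 2 or 3, or WT 7 d replicate 2 or 3 (edgeR adjusted p 0.0715 to 0.306), and with the block (0.0562). Without WT 7 d replicate 3 the change was 1.79. On FPKM, limma lost the WT 7 day call (1.06, adjusted p = 0.266, with 0.1 added) and the KO 24 h call (1.16, 0.0882), and with 1 added also the calls of WT at 24 h (0.56, 0.142) and KO at 96 h (0.35, 0.292).

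Dnmt1, the maintenance methyltransferase, was called lower in KO than in WT livers at no condition and rose after surgery in both genotypes. At baseline it stood at 10.8, 10.4 and 11.4 CPM in KO livers and at 6.64, 11.2 and 9.17 CPM in WT livers. At 30 h the KO livers held 42.4, 48.9 and 56.4 CPM and the WT livers 25.9 and 26.6 CPM, with no overlap. At 40 h they held 35.3, 57.4 and 34.8 CPM in KO and 62.7, 42.9 and 72.6 CPM in WT, with overlap.

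The 30 h log2 fold change of KO over WT was 0.91 ± 0.27 (edgeR adjusted p = 0.109), where 0.937% of genes were called. It passed the threshold in limma on log2(FPKM + 1), with an adjusted p of 0.0248, and in edgeR fitted on the 30 h libraries alone, with 0.0369. Without KO 96 h replicate 1, a library outside this comparison that enters the shared spread, its edgeR adjusted p was 0.0444. At 40 h the change was −0.48 ± 0.23 (edgeR adjusted p = 0.878). Averaged over the 7 conditions outside 96 h it was 0.07 ± 0.10 (95% interval −0.13 to 0.27).

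KO means of Dnmt1 ran 49.2 ± 7 CPM (30 h), 42.5 ± 12.9 (40 h), 30.1 ± 6.85 (48 h), 16.1 ± 3.07 (24 h) and 10.9 ± 0.531 (baseline), with 7.61 to 9.91 at the 3 later times. The KO libraries of 48 h and 24 h did not overlap, nor did those of 24 h and baseline. WT means ran 59.4 ± 15.1 CPM at 40 h, 29.9 ± 3.7 at 48 h (n = 2), 26.3 ± 0.48 at 30 h (n = 2) and 14.9 ± 3.52 at 24 h, with 7.12 to 11.4 elsewhere. The highest KO mean was thus at 30 h and the highest WT mean at 40 h, as for Uhrf1. For both genes the KO libraries of 30 h and 40 h overlapped, so their order in KO is not resolved. The joint edgeR test of the 6 time-by-genotype contrasts called neither gene (adjusted p = 0.747 for Dnmt1, adjusted p = 0.88 for Uhrf1). It called 0 of 8 members and 0.0426% of all genes. An unadjusted p under 0.05 was found for 1 member, DESeq2 called 0 and limma on log2(FPKM + 1) called 1.

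Dnmt1 rose over baseline at 3 times in KO and 4 in WT. In KO the log2 change was 2.18 ± 0.25 at 30 h, 1.97 ± 0.25 at 40 h and 1.47 ± 0.25 at 48 h (edgeR adjusted p 2.66e-08, 1.25e-07 and 1.51e-05), and 0.57 ± 0.25 at 24 h was not called (0.0971). In WT it was 0.73 ± 0.26 (24 h), 1.54 ± 0.28 (30 h), 2.72 ± 0.26 (40 h) and 1.73 ± 0.27 (48 h) (edgeR adjusted p 0.0379, 0.000119, 2.23e-10 and 6.93e-06). The WT 24 h call was lost without WT baseline replicate 1 or 3 or WT 24 h replicate 1 or 3 (edgeR adjusted p 0.0763 to 0.197). In the libraries labelled KO at 96 h, limma on log2(FPKM + 0.1) called Dnmt1 lower than at baseline (−0.85, adjusted p = 0.0155).

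The S-phase program itself differed between genotypes at 30 h, so both genes were also set against it. The 20 S-phase genes (MCM helicases, ribonucleotide reductase subunits and other fork factors) averaged 5.18 log2 CPM in KO and 4.05 in WT at 30 h, and 4.89 in KO and 5.32 in WT at 40 h. At 30 h edgeR called 7 of the 20 higher in KO, where 0.937% of all genes were called, with a median log2 change of 1.10 against 0.01 over all genes tested. Relative to that list, Uhrf1 lay between −1.81 and −1.35 in KO and between 0.95 and 0.96 in WT at 30 h, on the log2 scale. At 40 h it lay between −2.74 and −2.15 in KO and between 0.05 and 0.95 in WT. Over 24 to 48 h the mean KO minus WT difference of Uhrf1 relative to the list was −2.27, lower in KO with no overlap at any of the 4 times. The two-sided exact permutation p, with genotype labels moved within each time, was 2.5e-05, the smallest that the 40000 arrangements can give. Uhrf1 is the gene targeted in the KO line, so this p is a check of the knockout and not a separate finding. Dnmt1 relative to the same list differed by −0.11 (exact permutation p = 0.121), and KO and WT libraries overlapped at each of the 4 times. Adjusted over the 2 genes these p-values are 5e-05 and 0.121.

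**Figure D3:**
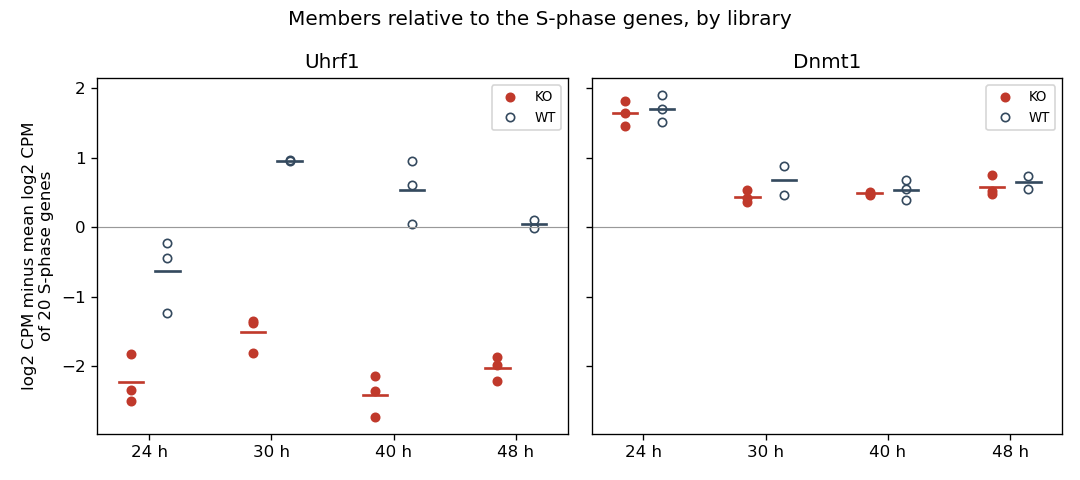
log2 CPM of Uhrf1 and Dnmt1 minus the mean log2 CPM of 20 S-phase genes, per library at 24 to 48 h, KO left of WT, with lines at group means. Uhrf1 lies below WT in every KO library, with 30 h means of −1.51 in KO and 0.96 in WT, while Dnmt1 lies at 0.44 in KO and 0.67 in WT.

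Across the 14 group means outside 96 h, Dnmt1 tracked the S-phase list with a Pearson r of 0.99, Uhrf1 with 0.90, Uhrf2 with 0.70 and Tet3 with −0.61, as a description with no test. The same group means enter every one of these correlations. The genes most like Dnmt1 among 11889 were Topbp1, Mcm7 and Slfn9 (r 0.990, 0.988 and 0.988). For Uhrf1 they were Agap1, 2810408I11Rik and Spcs3 (0.938, 0.938 and 0.927), for Uhrf2 Cdc23, Fam122b and Trim59 (0.990, 0.987 and 0.983), and for Tet3 Malt1, Rcor3 and Cul9 (0.914, 0.884 and 0.876). For Usp7, Dnmt3a, Dnmt3b and Tet2 the highest r was 0.882 (Zfp51), 0.888 (Vav2), 0.943 (Kdm5c) and 0.933 (Vps13c).

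Of the 12 maintenance partners on the list, 11 were tested, and edgeR called 3 higher in KO at 30 h, where 0.937% of all genes were called. These were Pclaf, a PCNA-binding protein whose ubiquitinated form is reported to recruit DNMT1 as well (log2 2.25 ± 0.43, edgeR adjusted p = 0.00634), the DNA ligase Lig1 (1.41 ± 0.35, 0.0391) and the sliding clamp Pcna (1.13 ± 0.24, 0.0162). The list's median at 30 h was 0.64, against 0.01 over all genes. Averaged over the 7 conditions, edgeR called 1 partner lower, Setd7, a methyltransferase reported to modify DNMT1 (−0.45 ± 0.10, adjusted p = 0.0056). In that average 2.13% of all genes were called. The S-phase genes rose at the same time, as given above, and their part in the values of Pclaf, Lig1 and Pcna was not tested.

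Usp7, the deubiquitinase that partners UHRF1 and DNMT1, stayed within a narrow range outside 96 h. Its KO group means outside 96 h lay between 51.7 and 61.2 CPM, and its WT group means between 54.2 and 63.5. The mean KO-over-WT change over 7 conditions was −0.02 ± 0.04 (95% interval −0.09 to 0.06). At 96 h the libraries labelled KO held 34.5, 41.6 and 39.9 CPM and those labelled WT 50.8, 49 and 50.6 CPM, with no overlap. The log2 change there was −0.37 ± 0.10 (edgeR adjusted p = 0.00902), where 14.3% of all genes were called. The call was lost without KO 96 h replicate 1 (log2 −0.30, edgeR adjusted p = 0.0562) on the 96 h libraries alone (−0.35, 0.229) and in limma on log2(FPKM + 0.1) (−0.42, 0.0559). In the same comparison, as labelled, all 14 mitosis genes were called higher and TMM factors of the KO libraries were 0.661 to 0.902, against 0.879 to 0.982 in WT; their part was not tested. Against baseline, 96 h fell by 0.66 ± 0.10 in the libraries labelled KO (edgeR adjusted p = 1.41e-06) and by 0.28 ± 0.10 in those labelled WT (0.0279). The WT call was lost without WT baseline replicate 3 (−0.14, 0.315), WT 96 h replicate 1 (−0.27, 0.0914) or replicate 2 (−0.24, 0.115), and in limma on log2(FPKM + 0.1) (−0.33, 0.0959).

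Uhrf2 was called higher than at baseline by edgeR at 40 and 48 h in both genotypes, and no difference between the genotypes was called. In KO at 30 h limma on log2(FPKM + 0.1) also called it higher (0.39, adjusted p = 0.0406). At baseline it stood at 28.9, 29 and 33 CPM in KO livers and 27.5, 25.8 and 29.6 CPM in WT livers. At 40 h it stood at 42.9, 37.9 and 53.5 CPM in KO livers and at 49.1, 48.9 and 43.9 CPM in WT livers. At 48 h it stood at 49.3, 59.6 and 50 CPM in KO livers and at 60.4 and 45.8 CPM in WT livers. All libraries of 40 and 48 h lay above the baseline libraries of their genotype, while KO and WT overlapped at both times. Over baseline the log2 change was 0.56 ± 0.11 at 40 h and 0.80 ± 0.11 at 48 h in KO (edgeR adjusted p 8.7e-05 and 2.4e-07), and 0.78 ± 0.11 at 40 h and 0.94 ± 0.12 at 48 h in WT (5.23e-07 and 8.95e-08). In the libraries labelled WT at 96 h it rose by 0.35 ± 0.11 (edgeR adjusted p = 0.0161), a call lost without WT baseline replicate 2 (0.0782) or WT 96 h replicate 1 (0.0576). The mean KO-over-WT change was 0.03 ± 0.04 (95% interval −0.06 to 0.12), and at 30 h it was 0.30 ± 0.12 (edgeR adjusted p = 0.311).

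**Figure D4:**
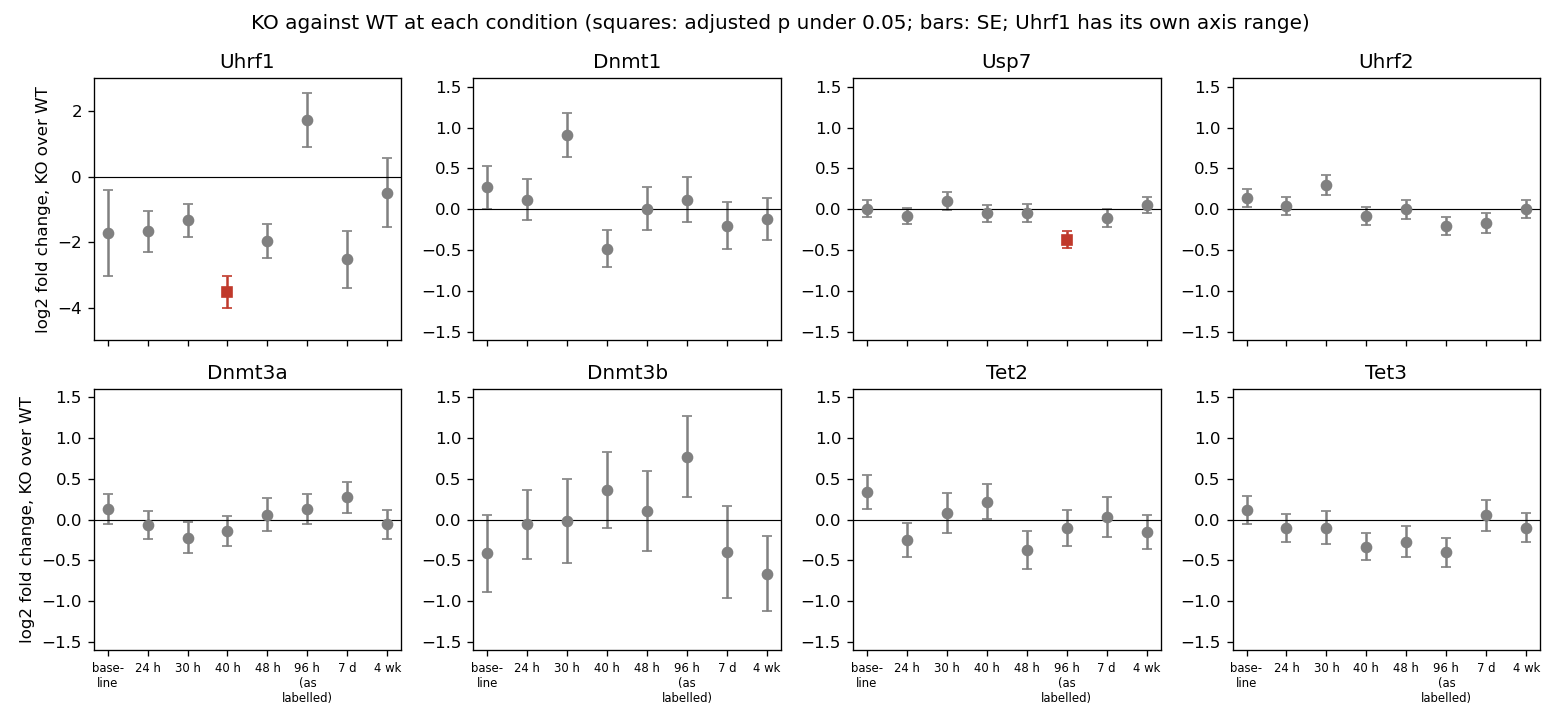
log2 fold change of KO over WT with its SE for 8 members at the 8 conditions; squares mark an edgeR adjusted p under 0.05. Only Uhrf1 at 40 h (−3.52) and Usp7 at 96 h as labelled (−0.37) are squares.

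Between the genotypes, the edgeR fit called 2 of 64 member tests, Uhrf1 at 40 h and Usp7 at 96 h. The share of all genes called was 0.0852% at baseline, 0.0426% at 24 h, 0.135% at 48 h, 0.135% at 7 days and 0.220% at 4 weeks, where no member was called. An unadjusted p under 0.05 was found in 11 of the 64 tests, and DESeq2 called 2. For the other members the mean change over 7 conditions was Dnmt3a 0.00 ± 0.07 (95% interval −0.14 to 0.14), Dnmt3b −0.16 ± 0.18 (−0.53 to 0.21), Tet2 −0.01 ± 0.08 (−0.18 to 0.16) and Tet3 −0.11 ± 0.07 (−0.25 to 0.03). The edgeR adjusted p of these 4 was 0.667 or more.

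Of the de novo methyltransferases, edgeR called Dnmt3a changed at 1 time after surgery and Dnmt3b at none. Dnmt3a, the main de novo enzyme of adult tissues, had KO group means of 12.7 to 22.3 CPM and WT group means of 13.2 to 20.4 outside 96 h, with 19.4, 14 and 18.9 CPM in KO livers and 12.5, 21.2 and 14.1 CPM in WT livers at baseline. Dnmt3a shares 133 exon bases with the antisense gene Dnmt3aos, and the sources used here do not say whether counting used strand. By edgeR it was lower by 0.47 ± 0.18 in the libraries labelled KO at 96 h over baseline (edgeR adjusted p = 0.033), a call lost without KO baseline replicate 1 (0.122), KO baseline replicate 3 (0.111) or KO 96 h replicate 1 (−0.25, 0.296). DESeq2 also called it lower in the libraries labelled WT at 96 h (−0.45, adjusted p = 0.0482). Dnmt3b is the embryonic de novo enzyme. At 24 h it stood at 4.07, 4.04 and 3.81 CPM in KO livers and 3.86, 5.31 and 3.25 CPM in WT livers, against 1.62, 2.16 and 1.7 CPM in KO and 1.17, 0.93 and 5.27 CPM in WT at baseline. The WT baseline group held 1 high library. Its 24 h log2 change was 1.12 ± 0.45 in KO (edgeR adjusted p = 0.0686) and 0.76 ± 0.45 in WT (0.236). Limma called the KO change, at 1.26 on log2(FPKM + 0.1) (adjusted p = 0.0228) and 0.59 on log2(FPKM + 1) (0.00689). Without WT baseline replicate 3, the 5.27 CPM library, the WT change was 1.97 (edgeR adjusted p = 0.00242).

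Tet2 and Tet3, the dioxygenases above the low-count filter here, fell after surgery, and no difference between the genotypes' courses was called. Tet2 stood at 9.07, 12.3 and 11.1 CPM in KO livers at baseline and 7.3, 9.01 and 9.47 in WT livers. At 48 h it stood at 5.59, 5.73 and 4.05 CPM in KO livers and 6.62 and 6.66 in WT livers. At 4 weeks it was still 4.91, 5.88 and 5.39 CPM in KO and 5.59, 6.19 and 6.12 in WT. No library of 48 h or 4 weeks reached its own baseline group.

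In KO, edgeR called Tet2 lower at 6 of 7 times, with log2 changes of −0.90 ± 0.21 at 30 h, −0.64 ± 0.21 at 40 h, −1.08 ± 0.21 at 48 h, −1.01 ± 0.21 at 96 h as labelled, −0.82 ± 0.24 at 7 days and −1.01 ± 0.21 at 4 weeks (adjusted p 0.00097, 0.0136, 8.64e-05, 0.000209, 0.0367 and 0.00371). In WT it called 2, −0.53 ± 0.21 at 40 h and −0.58 ± 0.21 at 96 h as labelled (adjusted p 0.0463 and 0.041). The WT 40 h call was lost without WT baseline replicate 2 or 3 or any WT 40 h library (edgeR adjusted p 0.0689 to 0.146) and with the block (0.0511). The WT 96 h call was lost without WT baseline replicate 2 or 3 or WT 96 h replicate 1 or 2 (0.104 to 0.242). The KO 40 h call was lost without KO baseline replicate 2 or KO 40 h replicate 2 or 3 (0.0613 to 0.0824), and the KO 7 day call without KO baseline replicate 2 or 3 or either KO 7 d library (0.0886 to 0.26). On log2(FPKM + 0.1), limma lost the KO calls of 30 h (−0.57, adjusted p = 0.0586), 40 h (−0.47, 0.117) and 7 days (−0.26, 0.559) and the WT calls of 40 h (−0.10, 0.773) and 96 h (−0.50, 0.11). DESeq2 added KO at 24 h (−0.51, adjusted p = 0.0483) and WT at 30 h (−0.64, 0.0483). Tet2 shares 43 exon bases with an antisense gene, Gm42567.

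Tet3 stood at 21.2, 15.4 and 24.6 CPM in KO livers at baseline and 13.8, 25.4 and 17.4 in WT livers. At 48 h it stood at 11.7, 13.1 and 10.3 CPM in KO and 12.9 and 15.3 in WT, and the KO libraries lay below their baseline group while the WT libraries overlapped theirs. It returned at 7 days, with 20.4 and 20.6 CPM in KO and 18, 18.3 and 23.1 in WT. The KO changes called by edgeR were −0.65 ± 0.17 at 30 h, −0.73 ± 0.17 at 40 h, −0.80 ± 0.17 at 48 h, −1.26 ± 0.18 at 96 h as labelled and −0.64 ± 0.17 at 4 weeks (adjusted p 0.00417, 0.00116, 0.000359, 9.62e-07 and 0.0202). In WT only 96 h as labelled was called, at −0.74 ± 0.18 (0.00228), lost without WT baseline replicate 2 (−0.46, 0.0606). The KO 30 h call was lost without KO baseline replicate 3 (0.0537), and the KO 4 week call without KO baseline replicate 1 or 3 or KO 4 wk replicate 1 or 3 (0.0617 to 0.129).

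The genotypes' Tet courses were not shown to differ: the joint edgeR test gave an adjusted p of 1 for both Tet2 and Tet3. Without WT baseline replicate 1, WT Tet3 was also called lower at 30 h (−0.61, edgeR adjusted p 0.0343), 40 h (−0.46, 0.0489) and 48 h (−0.60, 0.0222). Markers of other liver cells were read over the same times. Of 10 endothelial markers, edgeR called lower over KO baseline 4 at 30 h (33.1% of all genes called in either direction), 0 at 40 h (35.6%), 4 at 48 h (36.0%), 5 at 96 h as labelled (44.0%), 4 at 7 days (5.56%) and 7 at 4 weeks (8.57%). In WT it called 0 lower at all 7 times. Yet at 4 weeks 0 of the 10 lay above WT baseline (median log2 −0.37), where 1.17% of all genes were called. WT summed endothelial levels were 197 to 242 CPM at baseline and 154 to 177 at 4 weeks, without overlap. Between the genotypes edgeR called 0 of the 10 at 4 weeks (0.220% of all genes), so a fall particular to KO was not shown there. KO summed endothelial levels were 253 to 280 CPM at baseline, 126 to 209 at 30 h, 230 to 318 at 40 h, 118 to 254 at 48 h and 139 to 156 at 4 weeks. Kupffer markers were called lower for 3 of 11 and higher for 1 at KO 30 h, with sums of 104 to 237 CPM against 226 to 320 at baseline. Lymphocyte markers were called lower for 4 of 6 tested at KO 30 h, and stellate cell markers for 5 of 10 at KO 7 days and 3 of 10 at KO 4 weeks. Other times went the other way. Stellate cell markers were called higher for 4 of 10 at KO 40 h. At KO 96 h as labelled, 6 of 11 Kupffer markers and 5 of 7 tested neutrophil and monocyte markers were called higher. In WT, 3 of 10 stellate cell markers were called higher at each of 24 h (22.4% of all genes called), 30 h (17.7%) and 40 h (36.5%). The part of these cells in the Tet values was not tested.

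**Figure D5:**
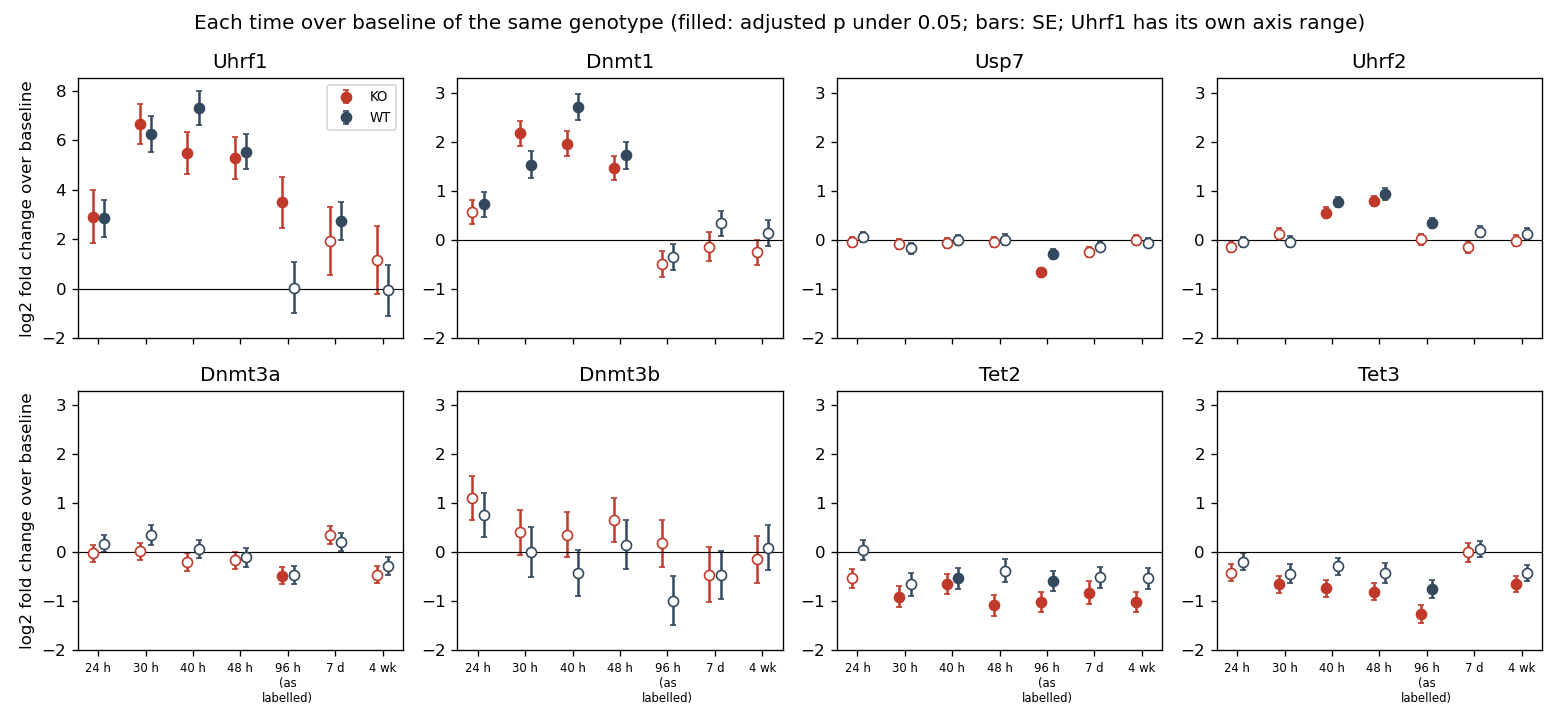
log2 fold change of each time over baseline of the same genotype with its SE, for 8 members, KO left of WT; filled points have an edgeR adjusted p under 0.05. The largest Uhrf1 change lies at 30 h in KO (6.65) and at 40 h in WT (7.29), and likewise for Dnmt1 (2.18 and 2.72). The KO libraries of 30 h and 40 h overlapped for both genes. Uhrf2 is highest at 48 h, and KO Tet2 lies at −1.08 at 48 h.

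Against baseline edgeR called, of 8 members in KO, 1 at 24 h (23.7% of all genes), 4 at 30 h (33.1%), 5 at 40 h (35.6%), 5 at 48 h (36.0%), 5 at 96 h as labelled (44.0%), 1 at 7 days (5.56%) and 2 at 4 weeks (8.57%). In WT it called 2 at 24 h (22.4%), 2 at 30 h (17.7%), 4 at 40 h (36.5%), 3 at 48 h (31.0%), 4 at 96 h (27.4%), 1 at 7 days (3.56%) and 0 at 4 weeks (1.17%), where 2 members had an unadjusted p under 0.05 and DESeq2 called 0. In all, 23 of 56 KO tests and 16 of 56 WT tests were called, 96 h included. A fit without the 96 h libraries called 19 in KO and 13 in WT. The members' shares thus lay near or below the background at several times, such as KO at 24 h.

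In the same edgeR tests, few genes of the other pathway lists were called between the genotypes outside 96 h. Outside 96 h the base-repair list held 1 call between genotypes, Neil3, a DNA glycosylase, at 30 h (log2 1.85 ± 0.38, edgeR adjusted p = 0.0135). The lists of de novo partners, TET cofactors, methyl-CpG readers and the S-adenosylmethionine cycle held none. The share of all genes called at a condition outside 96 h was only 0.0426% (24 h) to 0.937% (30 h). At such shares the lack of calls says little about these lists. TET cofactors, which include the isocitrate dehydrogenases that make 2-oxoglutarate, were called lower at 40 h for 5 of 7 tested in KO and 5 of 7 in WT, and higher for 1 in each, where 35.6% of all genes in KO and 36.5% in WT were called in either direction. Of the 18 genes of the S-adenosylmethionine cycle, which supplies the methyl donor, 6 in KO and 7 in WT were called lower at 24 h and 2 and 1 higher, where 23.7% of all genes in KO and 22.4% in WT were called. Between the libraries labelled KO and WT at 96 h, edgeR called Mat1a, the adult liver's S-adenosylmethionine synthetase gene, higher (1.51 ± 0.33, adjusted p = 0.00213) and Mbd1, a methyl-CpG reader, lower (−2.46 ± 0.45, 0.000571), with 4 of 15 repair genes and 6 of 18 cycle genes called, against 14.3% of all genes.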

How the data were processed

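Gene counts are whole-number read counts per Ensembl gene as the authors deposited them, with no normalization. FPKM values are a second table deposited by the authors, used for levels per length and in alternative tests. Per the submitters' processing notes, reads were handled with FastQC 0.11.5, Trimmomatic, TopHat2 2.1.0, Cufflinks 2.2.1, HTSeq and DESeq2 on build mm10. No source used here states their parameters, annotation or strand setting.

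Counts were filtered with filterByExpr (14090 of 19966 genes kept, with at least 99.944% of each library's counts), scaled with TMM and tested with edgeR 4.0.16 (robust quasi-likelihood fit, R 4.3.3), with 1 mean for each of 16 groups and all 45 libraries sharing the spread. Genes were called at 0.05 after Benjamini-Hochberg adjustment across the whole tested table. The test was first tested on simulated data. Alternatives used DESeq2 1.42.0, limma 3.58.1 on log2(FPKM + 0.1) and log2(FPKM + 1), other scaling and filters, a replicate block and leaving out each library.

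Groups and replicate numbers come from sample titles. The submitters' descriptions of the baseline libraries carry a 40 h prefix. Whether baseline and 40 h libraries share animals is not stated in the sources used here. The tests took them as separate groups. The labels do not state that replicates are separate animals, so p-values measure the spread between these libraries, which may be technical.

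The members, the 16 gene lists and the rule for named genes were chosen with earlier results of these data known. The rule named all members, the 3 genes most like each by Pearson r over 14 group means outside 96 h (among genes whose mean log2 CPM was 0 or more), and up to 6 called genes per list. Not all of the genes most like a member are reported here. Promoter sequences are from RefSeq (GRCm38.p6), and gene overlaps from GENCODE. Limits for counts of 0 (3 counts) cover counting error only. The intervals of log2 changes follow from the SE of the edgeR fit, which includes the spread between libraries.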

Additional observations from a re-analysis of the deposited data

How the results depend on the processing

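Between genotypes, the 2 member calls fell to 1 without the 96 h libraries and to 1 with limma on log2(FPKM + 0.1), Uhrf1 at 40 h in both. Each condition fitted alone also gave 1 call, but neither of these 2 calls held. In that setting Uhrf1 at 40 h (edgeR adjusted p = 0.291) and Usp7 at 96 h (0.229) were lost. The 1 call was Dnmt1 at 30 h (0.0369). Limma on log2(FPKM + 1) gave 3, with Uhrf1 at 48 h and Dnmt1 at 30 h added and Usp7 at 96 h lost, and the joint test of time courses called 1 member with limma on log2(FPKM + 1) against 0 in edgeR. Leaving out 1 library at a time gave 2 calls between genotypes each time, not always the same: Uhrf1 at 40 h was called in 45 of 45 fits and Usp7 at 96 h in 44, and without KO 96 h replicate 1 Dnmt1 at 30 h was called in place of Usp7. It gave 1 for the mean over 7 conditions, 18 to 24 for KO times, 13 to 19 for WT times and 0 for the joint test. Relative to the S-phase list, the difference then lay between −2.34 and −2.21 for Uhrf1 and between −0.16 and −0.05 for Dnmt1. Set against the mitosis list instead, it was −2.53 for Uhrf1 and −0.37 for Dnmt1 (exact permutation p = 0.0592). No called value changed sign under any alternative run. The deviations of same-numbered KO and WT libraries correlated at −0.306 to 0.306 over 21 pairs, with 8 above 0.1. Not every pair passed 0.1, and the numbers were not taken to pair the libraries. With groups of 2 or 3 libraries these correlations cannot exclude a shared batch. Correlations of same-numbered baseline and 40 h libraries were not computed. With the replicate block 39 of the 42 calls held, 3 were lost and 0 were gained: Uhrf1 in KO at 24 h and in WT at 7 days, and Tet2 in WT at 40 h. With 1 library left out, 46 single-gene values lost their call and 14 gained one, and the cause was not tested. At this depth Tet1 could not be tested, and Uhrf1 at baseline and 4 weeks rests on few counts. Groups of 2 or 3 libraries set the precision of all tests.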
